A study of Mus musculus with 10 samples.

Results

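The 10 CXC chemokines described here are Cxcl1, Cxcl2, Cxcl3, Cxcl9, Cxcl10, Cxcl11, Cxcl12, Cxcl14, Cxcl16 and Pf4, of 19938 mouse genes measured on 10 Affymetrix expression arrays. They were taken from a fixed list of names, which was chosen with earlier results of these data known. Each was read by the array's probe set annotated to that gene alone, and every one of the 10 had exactly 1 such probe set and none shared with another gene. The arrays held total RNA of immortalized mouse macrophages of a wild-type B6 line and of a line with a Toll-like receptor 9 knockout (TLR9KO), a receptor for DNA in endosomes. The 4 groups were wild type unstimulated (3 arrays), wild type with β-1,3 glucan beads (3 arrays), TLR9KO unstimulated (2 arrays) and TLR9KO with beads (2 arrays). Beads, particles of a fungal cell wall sugar, were given at 20 per cell for 4 h. Each genotype is represented by 1 immortalized line, so a difference between the lines and an effect of the missing receptor cannot be told apart. The titles number the knockout arrays 1 to 9 and the wild-type arrays 10 to 18, and an effect of that numbering cannot be told apart from the line either. How the lines were immortalized is not stated here. Nor do the labels say whether a group's arrays are separate cultures, and each p-value therefore covers array-to-array spread, which may be technical.

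CXC chemokines are small secreted proteins that draw leukocytes along a gradient through G protein-coupled receptors. Cxcl1, Cxcl2 and Cxcl3 attract neutrophils through Cxcr2, and their transcription is classically driven by NF-kappaB. Cxcl9, Cxcl10 and Cxcl11 are induced by interferons and attract activated T cells and NK cells through Cxcr3. Cxcl12 is the stromal ligand of Cxcr4, Cxcl14 is a chemokine found mainly in epithelia, and Cxcl16 is made as a membrane-bound protein that binds Cxcr6. Pf4 (platelet factor 4, also Cxcl4) is best known from platelet granules and is made by some macrophages too.

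In these macrophages 4 of the 10 genes differed between the lines, and all 4 were higher in the knockout line. Of all genes, 3.79% were higher without beads and 3.82% with beads. Without beads Cxcl10 was 17.6-fold higher, Cxcl16 10.5-fold, Cxcl14 4.33-fold and Pf4 4.30-fold, with 2 knockout and 3 wild-type arrays. With beads the same 4 genes were higher, by 21.8-fold, 10.5-fold, 6.36-fold and 3.78-fold. The neutrophil attractants Cxcl1, Cxcl2 and Cxcl3, the other Cxcr3 ligands Cxcl9 and Cxcl11, and Cxcl12 did not pass the test between the lines. With all arrays weighted equally, no chemokine of the 10 passed the test for a bead response in either line. Nor did any other of the 19938 genes. The bead tests gave fewer small p-values than evenly spread ones would, so this does not show that no gene responded.

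The promoters of the chemokines are shown first for the genes that carry these differences and for neighbours that did not share them. RefSeq (GRCm38.p6) gave a promoter for 8 of the 10 genes, not for Cxcl11 and Cxcl16. The 250 bases before the start of the gene were searched on both strands for 3 motifs: an NF-kappaB type (GGG, any 3 bases, TTCC), an interferon-stimulated response element type (GAAA, any 2 bases, GAAA) and a STAT type (TTCNNNGAA). Of 32841 promoters of this length, 4.65%, 2.98% and 7.02% held them. The sequences run 5′ to 3′ in the direction of the gene, and capitals mark the matches.
Cxcl10 (chr5:92348890-92349139, minus strand): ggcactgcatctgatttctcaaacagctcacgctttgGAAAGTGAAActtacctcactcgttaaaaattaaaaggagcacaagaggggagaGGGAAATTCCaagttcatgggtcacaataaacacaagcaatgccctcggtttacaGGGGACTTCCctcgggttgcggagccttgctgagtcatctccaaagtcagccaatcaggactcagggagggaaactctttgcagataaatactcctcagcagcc
Cxcl9 (chr5:92328080-92328329, minus strand): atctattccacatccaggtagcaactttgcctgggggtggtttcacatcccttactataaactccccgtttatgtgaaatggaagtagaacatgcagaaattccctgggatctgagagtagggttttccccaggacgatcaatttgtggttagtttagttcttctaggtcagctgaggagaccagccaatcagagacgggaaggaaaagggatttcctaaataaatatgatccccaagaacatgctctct
Cxcl14 (chr13:56296552-56296801, minus strand): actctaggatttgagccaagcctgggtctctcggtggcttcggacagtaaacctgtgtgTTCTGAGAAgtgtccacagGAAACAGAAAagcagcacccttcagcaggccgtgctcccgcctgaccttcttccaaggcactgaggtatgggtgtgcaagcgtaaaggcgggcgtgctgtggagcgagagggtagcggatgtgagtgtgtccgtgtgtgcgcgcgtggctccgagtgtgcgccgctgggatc
Pf4 (chr5:90772185-90772434, plus strand): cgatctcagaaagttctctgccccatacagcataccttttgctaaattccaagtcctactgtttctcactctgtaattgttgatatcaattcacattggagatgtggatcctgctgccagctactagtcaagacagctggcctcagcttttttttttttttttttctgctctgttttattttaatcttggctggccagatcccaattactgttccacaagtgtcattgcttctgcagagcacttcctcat
Cxcl2 (chr5:90903649-90903898, plus strand): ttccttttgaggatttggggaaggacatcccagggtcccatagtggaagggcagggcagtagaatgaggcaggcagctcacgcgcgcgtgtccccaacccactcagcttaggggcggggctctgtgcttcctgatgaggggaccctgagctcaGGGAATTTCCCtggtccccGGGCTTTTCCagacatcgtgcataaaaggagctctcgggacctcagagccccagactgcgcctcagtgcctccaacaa

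The Cxcl10 window held the interferon response element type as GAAAGTGAAA and the NF-kappaB type as GGGAAATTCC and GGGGACTTCC. Cxcl14 held the interferon response element type as GAAACAGAAA and the STAT type as TTCTGAGAA. The windows of Cxcl1, Cxcl2 and Cxcl3 each held GGGAATTTCC, whose reverse strand gives an overlapping match 1 base further on, and each held 1 more match to the NF-kappaB type. In Cxcl2 this was GGGCTTTTCC. No match to the 3 motifs was present in the windows of Cxcl9, Pf4 and Cxcl12. Of the 4 genes that were higher in the knockout line, Cxcl10 and Cxcl14 thus held an interferon response element match, Pf4 held no match, and Cxcl16 was not searched. A match is a stretch of letters and was not tested for binding.

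Values are log2 signals made by RMA, which corrects for background, normalises and combines the probes that target a gene. A difference of 1 is a factor of 2. Array medians over all probe sets ran from 5.75 to 6.10. Wild-type bead array 3 stood apart, with the highest median and the smallest spread of genes (SD 1.75 against 1.86 to 2.00). Of the 10 chemokines, 8 had their highest wild-type value on that array, against 46.4% of all genes. Tlr9 read 6.91 to 7.32 in unstimulated wild type and 7.44 to 7.62 in unstimulated knockout. The position of its probe set relative to the deleted part is not known here, so Tlr9 does not check the labels. Markers of macrophages were high in all arrays, with a mean log2 signal over 10 genes of 10.16 to 10.21 in unstimulated wild type, 9.83 to 10.42 with beads, 10.63 to 10.77 in unstimulated knockout and 10.49 to 10.67 with beads. In both comparisons of the lines 4 of the 10 were higher in knockout (Cd14 by 2.46 ± 0.18, SE, without beads) and Mertk was lower, and their part in the results was not tested. Among all genes 3.79% were higher and 4.46% lower without beads, and 3.82% and 3.40% with beads. Differences come from limma (a linear model across all genes with 4 group means), each with its standard error (SE), and a gene passed when its two-sided p, adjusted after Benjamini-Hochberg for 19938 genes, was under 0.05.

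**Figure D1:**
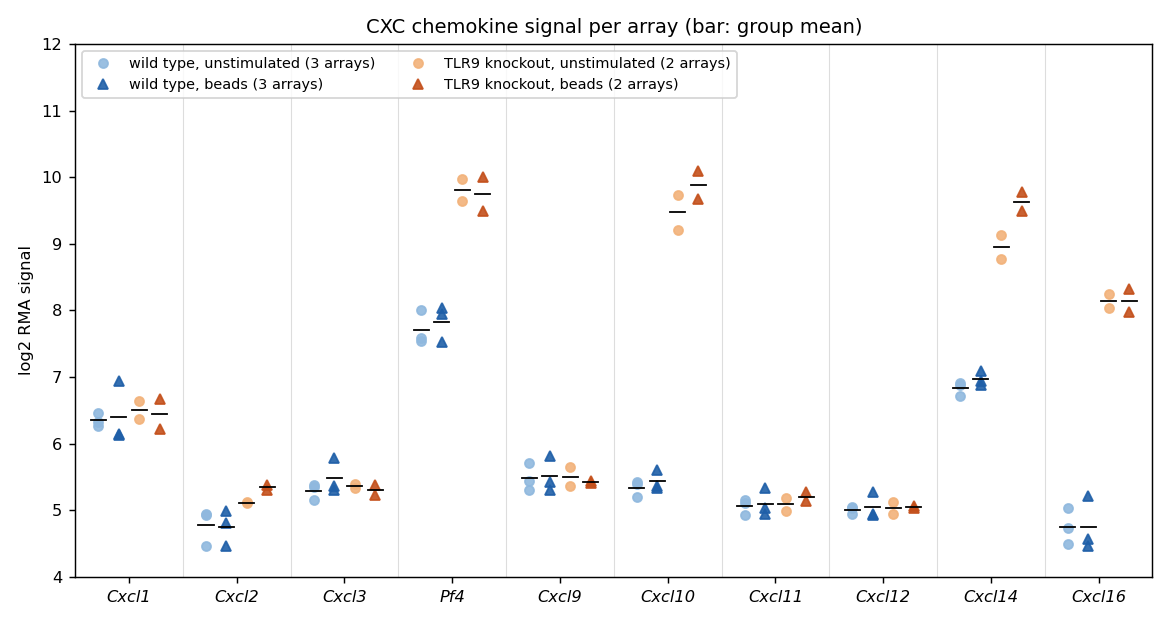
Each point is the log2 RMA signal of 1 array for 1 of the 10 CXC chemokines, in 4 groups (circles unstimulated, triangles beads; blue wild type, orange to red TLR9 knockout), and short bars are group means. The knockout arrays of Pf4, Cxcl10, Cxcl14 and Cxcl16 lie above all wild-type arrays, by at least 1.47 for Pf4 and at least 3.60 for Cxcl10.

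Among the Cxcr3 ligands, Cxcl10 (interferon-inducible protein 10, probe set 10531415) showed the largest difference of the 10. Unstimulated wild type read 5.20, 5.42 and 5.39 on the log2 scale, and wild type with beads 5.36, 5.33 and 5.61. In the knockout line it was 9.74 and 9.21 without beads and 9.67 and 10.09 with beads. The lowest knockout array thus lay 3.60 above the highest wild-type array, while values within a line spread over 0.41 in wild type and 0.88 in knockout. Without beads the means were 9.48 ± 0.38 (SD, n = 2) and 5.33 ± 0.12 (SD, n = 3), a difference of 4.14 ± 0.18 (SE) by limma (adjusted p = 2.13e-06). With beads it was 4.44 ± 0.18 (SE; adjusted p = 1.41e-06). In these 2 comparisons Cxcl10 ranked 5 and 3 from the highest among 19938 genes. The wild-type signal stood at percentiles 36.2 to 43.6 of the probe sets of an array. The table gives no detection calls, so whether that signal lies above background is not known and the fold rests on it. In cultures measured in bulk, more cells with the transcript and more transcript per cell cannot be told apart.

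Cxcl9 (monokine induced by interferon gamma) stayed low in every array. It read 5.71, 5.31 and 5.44 in unstimulated wild type, 5.42, 5.31 and 5.82 in wild type with beads, 5.65 and 5.36 in unstimulated knockout, and 5.41 and 5.44 in knockout with beads. All 4 groups overlapped. The difference between the lines had a 95% confidence interval of -0.38 to 0.41 without beads and -0.48 to 0.31 with beads. Cxcl11 (interferon-inducible T cell alpha chemoattractant) lay between 4.93 and 5.33 over the 10 arrays. Its intervals were -0.28 to 0.33 and -0.20 to 0.41. For both genes a change as large as that of Cxcl10 thus lay outside the interval, on a scale that compresses signals near background. After each array's median was subtracted, the 10 values of Cxcl11 spread over 0.18 instead of 0.40.

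The receptor Cxcr3, which binds these 3 ligands, was itself higher in the knockout line. It read 6.59 to 6.74 in unstimulated wild type and 7.54 to 7.57 in unstimulated knockout (0.91 ± 0.14, SE; adjusted p = 0.00357 by limma). With beads the difference was 0.71 ± 0.14 (SE; adjusted p = 0.0138). It was the only one of 8 measured CXC chemokine receptors that passed in either comparison. Among all genes 8.25% passed without beads and 7.22% with beads, so 1 receptor of 8 is near that share. Cxcr4, the receptor of Cxcl12, differed by -0.11 ± 0.10 (SE) without beads, and Cxcr6, the receptor of Cxcl16, was below the lower quartile of probe sets on all 10 arrays, as were Cxcr2 and Cxcr5.

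Cxcl16, the membrane-bound ligand of Cxcr6 that also takes up oxidised lipoprotein, was the next in size (probe set 10387890). It read 5.04, 4.50 and 4.73 in unstimulated wild type and 4.57, 4.47 and 5.22 with beads. In the knockout line it was 8.25 and 8.03 without beads and 7.97 and 8.32 with beads. No array of a line came within 2.75 of the other line. The difference was 3.39 ± 0.24 (SE) without beads (adjusted p = 3.03e-05) and 3.39 ± 0.24 with beads (adjusted p = 3.20e-05), both by limma. In 3 of the 6 wild-type arrays the signal was below the lower quartile of the array, and the fold of 10.5 rests on it. The proteases that release the chemokine domain, Adam10 and Adam17, differed by -0.15 ± 0.16 and 0.51 ± 0.18 (SE) without beads and did not pass (adjusted p = 0.908 and 0.156, limma).

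Cxcl14 (probe set 10409579) read 6.88, 6.71 and 6.91 in unstimulated wild type and 7.09, 6.94 and 6.88 in wild type with beads. In the knockout line it read 9.13 and 8.77 without beads and 9.49 and 9.78 with beads. The lines did not overlap, and in the knockout line the arrays with beads also lay above those without. The difference between the lines was 2.12 ± 0.14 (SE) without beads (adjusted p = 2.37e-05) and 2.67 ± 0.14 with beads (adjusted p = 6.56e-06), by limma.

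Pf4 (probe set 10523134), which binds heparin and other glycosaminoglycans, stood at percentiles 71.7 to 77.0 of the probe sets of an array in wild type and 91.9 to 94.0 in knockout. Its log2 signal was 7.54, 8.01 and 7.59 in unstimulated wild type and 8.03, 7.95 and 7.52 with beads. In the knockout line it was 9.98 and 9.65 without beads and 9.50 and 10.00 with beads. The lines were 1.47 apart at their nearest arrays, against a spread of 0.51 within wild type and 0.50 within knockout. The difference was 2.10 ± 0.22 (SE) without beads (adjusted p = 3.47e-04) and 1.92 ± 0.22 with beads (adjusted p = 6.17e-04), by limma. Of 10 listed platelet and megakaryocyte markers 6 were measured, and none of them passed between the lines. Their mean level was 5.53 to 5.81 in unstimulated wild type, 5.55 to 6.13 with beads, 5.69 to 5.94 in unstimulated knockout and 5.69 to 5.88 with beads. Ppbp, another platelet chemokine, was below the lower quartile on every array, the only 1 of the 6 that was. Below the array median throughout were 2 of the 6, while Itga2b, Itgb3, Gp5 and Treml1 were not.

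The count of 4 higher of 10 compares with 3.79% of all genes higher without beads and 3.82% with beads. None of the 10 was lower, against 4.46% and 3.40%. The 10 were chosen with earlier results of these data known, so the counts given here are no independent support. The median difference over the 10 was 0.24 without beads and 0.35 with beads, against 0.017 and -0.011 over all genes. The 2 comparisons share no arrays but use the same fit. In each comparison 5 of the 10 had knockout arrays wholly above the wild-type arrays, Cxcl2 being the fifth, where 17.7% of all genes did so without beads and 11.3% with beads. None of the 10 had them wholly below, against 21.1% and 12.3% of all genes.

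**Figure D2:**
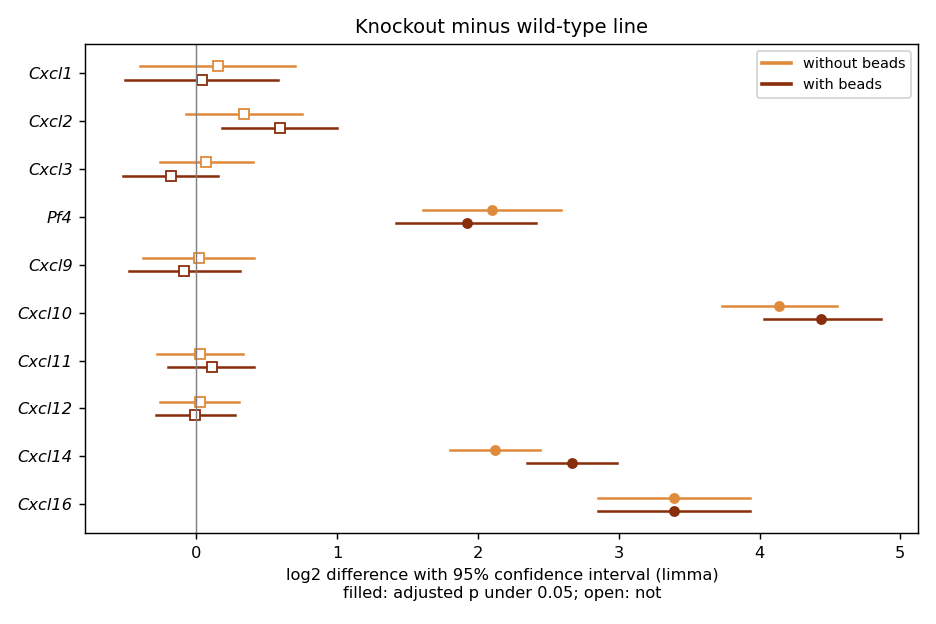
Points are log2 differences, knockout minus wild-type line, for the 10 CXC chemokines without beads (light) and with beads (dark), and lines are 95% confidence intervals from limma. Filled points (Pf4, Cxcl10, Cxcl14 and Cxcl16) passed at an adjusted p under 0.05, and the intervals of Cxcl1, Cxcl3, Cxcl9, Cxcl11 and Cxcl12 include 0 in both comparisons.

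Of the neutrophil attractants, Cxcl2 (macrophage inflammatory protein 2) came nearest to the threshold. It read 4.94, 4.46 and 4.93 in unstimulated wild type, 4.81, 4.46 and 4.99 in wild type with beads, 5.12 and 5.11 in unstimulated knockout, and 5.31 and 5.38 in knockout with beads. All knockout arrays lay above all wild-type arrays, the nearest by 0.11. The difference was 0.34 ± 0.18 (SE) without beads (adjusted p = 0.439) and 0.59 ± 0.18 with beads (adjusted p = 0.103), and neither passed in limma. The difference with beads passed in 3 alternative fits: when wild-type bead array 3 was left out (0.71, adjusted p = 0.0118), when the values were quantile normalised again (0.58, 0.0352) and with array weights (0.86, 5.0e-04). Over the 20 alternatives its adjusted p ran from 5.0e-04 to 0.445. Its signal was below the lower quartile on 2 of the 6 wild-type arrays. The array weights ran from 0.0701 for wild-type bead array 3 to 12.1 for wild-type bead array 2, and their estimation stopped before it converged. In that fit the wild-type bead mean thus rests mostly on array 2, which read 4.46.

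Cxcl1 (KC) read 6.33, 6.26 and 6.46 in unstimulated wild type, 6.13, 6.15 and 6.94 with beads, 6.37 and 6.64 in unstimulated knockout, and 6.67 and 6.22 in knockout with beads. The 6.94 of wild-type bead array 3 was the highest of the 10 values, and the groups overlapped throughout. Its difference between the lines was 0.15 ± 0.24 (SE) without beads and 0.037 ± 0.24 with beads. Cxcl3 (dendritic cell inflammatory protein 1) lay between 5.15 and 5.78, again with its highest value on wild-type bead array 3. It differed by 0.070 ± 0.15 (SE) and -0.18 ± 0.15. Subtracting each array's median narrowed the spread of the 10 values from 0.81 to 0.49 for Cxcl1 and from 0.63 to 0.29 for Cxcl3.

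Cxcl12 (stromal cell-derived factor 1) showed the narrowest range of the 10 genes, 4.93 to 5.28. Its interval for the difference between the lines was -0.26 to 0.30 without beads and -0.29 to 0.27 with beads. After the array medians were subtracted the 10 values spread over 0.11. None of 9 fibroblast and stromal markers passed between the lines. Their mean level was 5.56 to 5.82 in unstimulated wild type and 5.66 to 5.87 in unstimulated knockout, and 4 of the 9 were below the array median throughout. Of 10 granulocyte markers 9 lay below the median in all arrays, and so did 8 of 9 measured lymphocyte markers. None of these markers passed. Among 8 dendritic cell markers none passed, and among 8 endothelial and epithelial markers Kdr was higher (0.80 ± 0.12, SE; adjusted p = 0.00285 by limma). Among all genes 8.25% passed without beads.

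Of the 4 chemokines that differed, Cxcl10 and Pf4 lie in groups with chemokines that did not pass, while Cxcl14 and Cxcl16 have no chemokine among their measured neighbours. In the gene order of RefSeq, Cxcl9, Cxcl10 and Cxcl11 lie close together on chromosome 5, with Art3 between Cxcl9 and Cxcl10. Art3 differed by 0.0024 ± 0.09 (SE) between the unstimulated lines, against 4.14 for Cxcl10 itself. Before Cxcl9, Naaa, a lysosomal amidase, was lower in the knockout line (-1.12 ± 0.10, SE; adjusted p = 1.21e-04 by limma), and Sdad1 was at -0.70 ± 0.19 (adjusted p = 0.0581). Pf4 lies on chromosome 5 as well, between Ppbp and Cxcl3, in a group that ends with Cxcl1 and Cxcl2. Ppbp, Cxcl5 and Cxcl15 differed by 0.10, -0.061 and 0.072 between the unstimulated lines and did not pass. Zmynd15, next to Cxcl16 on chromosome 11, was higher by 0.86 ± 0.15 (SE; adjusted p = 0.00722 by limma), while Med11, on the other side, differed by 0.22 ± 0.17. Over the neighbourhoods of all 10 chemokines, 4 of 32 other measured genes passed without beads and 3 with beads, where 8.25% and 7.22% of all genes did.

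**Figure D3:**
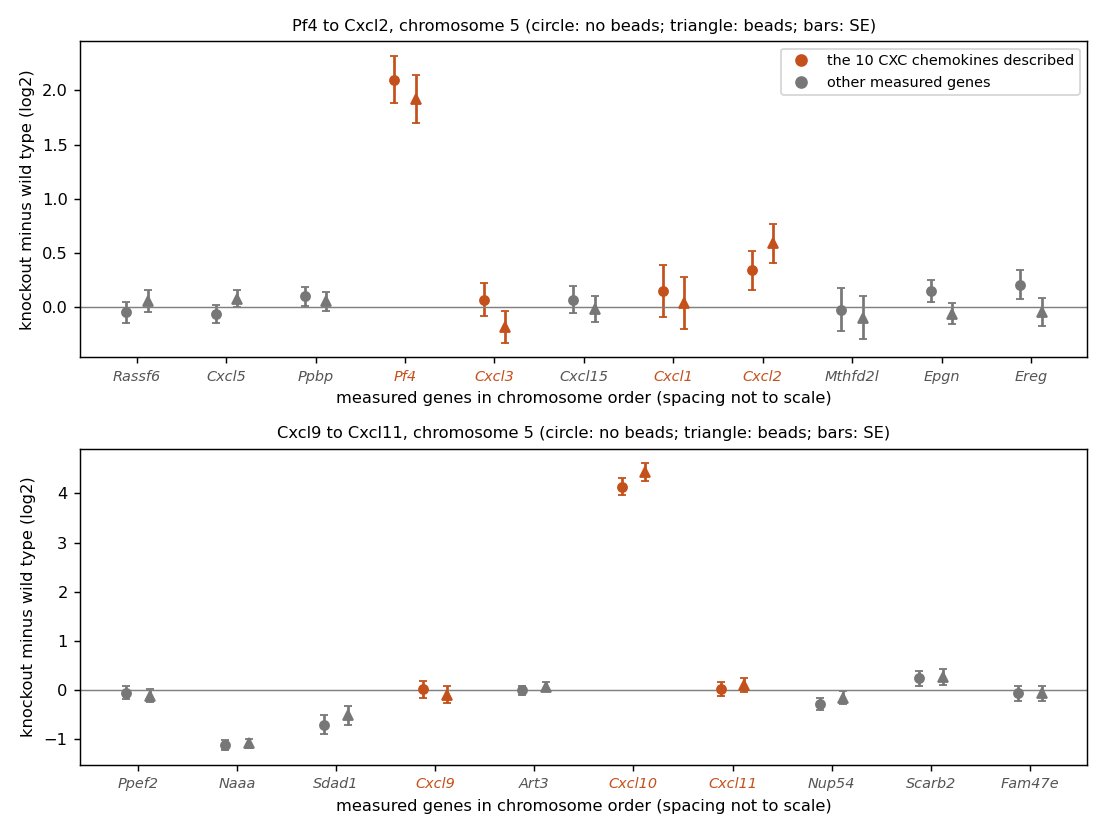
Measured genes in chromosome order around Pf4 to Cxcl2 and around Cxcl9 to Cxcl11, with the log2 difference knockout minus wild type without beads (circles) and with beads (triangles), and the SE of the fit as bars. Pf4 (2.10 and 1.92) and Cxcl10 (4.14 and 4.44) stand above neighbours that lie between -1.12 and 0.59.

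Genes of the pathways that feed these chemokines were taken from lists chosen with earlier results of these data known, so their direction is no independent support. Of 15 measured genes of the NF-kappaB arm, 7 were higher and 1 lower in the unstimulated knockout line, against 3.79% and 4.46% of all genes. The inhibitor Nfkbie (1.62 ± 0.12, SE), the deubiquitinase Tnfaip3 (0.88 ± 0.10), Bcl3 (0.83 ± 0.15) and Tnf (0.83 ± 0.12) led them, and Il1a (-0.67 ± 0.16) was lower. The subunits Rela (0.27 ± 0.28) and Rel (0.39 ± 0.20) did not pass. With beads 8 of the 15 were higher and none was lower, against 3.82% and 3.40% of all genes. The list's median was 0.39 without beads, beside 0.070 to 0.34 for Cxcl1, Cxcl2 and Cxcl3.

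The interferon arm was higher in 10 of 16 measured genes and lower in none without beads, against 3.79% and 4.46% of all genes. Irf7 (5.12 ± 0.13, SE), the deubiquitinase-like Usp18 (3.15 ± 0.16), Stat2 (2.11 ± 0.12) and Irf9 (1.63 ± 0.12) had the largest differences. Irf1, through which interferon gamma acts on many of its targets, was higher by 1.17 ± 0.09 (SE), and the receptor chain Ifngr1 by 1.29 ± 0.19. Ifnb1 itself differed by -0.069 ± 0.18 (SE; adjusted p = 0.998 by limma). It read only 4.62 to 5.27 over the 10 arrays, near the arrays' lower quartiles of 4.60 to 4.87. Whether that signal lies above background is not known. Of 15 measured interferon-induced effectors 12 were higher and none lower in both comparisons, where with beads 3.82% of all genes were higher and 3.40% lower. Usp18 is on this list as well as in the interferon arm and is counted in both. The median of the effectors was 2.36 without beads. Cxcl10 lay above that median, and Cxcl9 (0.017) and Cxcl11 (0.026) far below it.

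Regulators of chemokine mRNA decay also differed in part. Zfp36 (tristetraprolin), which binds AU-rich elements and speeds decay of chemokine mRNAs such as Cxcl1, was higher in the knockout line by 2.28 ± 0.31 (SE; adjusted p = 0.00181 by limma) and by 1.93 ± 0.31 with beads. Its inhibitory kinase Mapkapk2 was lower by limma (-0.50 ± 0.11, SE, and -0.71 ± 0.11). Traf3ip2 (0.68 ± 0.13) was higher without beads, and the RNase Zc3h12a (0.47 ± 0.12) with beads. The other 5 of the 9 genes passed in neither. Of 9 genes of chemokine processing, the matrix metalloproteinase Mmp12, which cuts ELR chemokines, was higher (0.79 ± 0.15, SE, and 0.82 ± 0.15), and no other passed. Among all genes 8.25% passed without beads and 7.22% with beads, so 1 gene of 9 is near that share.

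The 5 other measured CXC chemokines, Cxcl5, Cxcl13, Cxcl15, Cxcl17 and Ppbp, did not pass in any comparison. Cxcl17, a mucosal chemokine, read 6.11 to 6.74 over the 10 arrays, and Cxcl15 and Ppbp stayed below the lower quartile of every array.

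No bead response passed among the 10 chemokines in the fit with equal array weights. With estimated array weights 4 passed in wild type (Cxcl1 -0.27, Cxcl2 -0.42, Cxcl16 -0.29 and Pf4 0.35). Of these, Cxcl1 and Cxcl16 changed sign (from 0.059 and 6.1e-05). The estimation of these weights stopped before it converged. The share of all genes that passed in that fit was not counted, so the 4 cannot be set against it. With equal weights the wild-type log2 differences, beads minus unstimulated, ran from -0.024 (Cxcl2) to 0.19 (Cxcl3), and none had arrays that did not overlap, where 2.29% of all genes were wholly higher and 1.24% wholly lower. The 95% confidence intervals of the 10 lay between -0.48 and 0.56, so a rise of 1 (a doubling) was outside each of them. For Cxcl10 the difference was 0.10 ± 0.16 (SE) with an interval of -0.27 to 0.47. For Cxcl2 the interval was -0.39 to 0.34. Of all genes 0% passed in wild type, in knockout and for the difference between the responses. In limma 167, 359 and 172 of the 19938 genes had an unadjusted p under 0.05. With no effect and evenly spread p-values a share of 0.05 of all genes would fall there, and each count was below that. The bead tests thus gave too few small p-values, and the cause was not tested. That 0% passed therefore does not show that no gene responded.

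In the knockout line Cxcl14 had the largest bead difference of the 10. It read 9.13 and 8.77 without and 9.49 and 9.78 with beads, a difference of 0.69 ± 0.16 (SE; interval 0.34 to 1.04) that ranked 28 of 19938 genes but did not pass (limma, unadjusted p = 0.00154, adjusted p = 0.795). Its arrays did not overlap, which held for 13.2% of all genes in that direction and for 11.2% in the other. The bead response of Cxcl14 was 0.14 ± 0.13 (SE) in wild type, and the test of the difference between the lines gave 0.55 ± 0.20 (limma, unadjusted p = 0.0218, adjusted p = 1). Cxcl10 differed by 0.40 ± 0.20 in the knockout line, with an interval of -0.049 to 0.86 and overlapping arrays. Cxcl2 differed by 0.23 ± 0.20, with both bead arrays above both unstimulated ones. Cxcl16 had intervals of -0.59 to 0.59 in knockout and -0.48 to 0.48 in wild type, and Pf4 of -0.60 to 0.47 and -0.32 to 0.56.

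**Figure D4:**
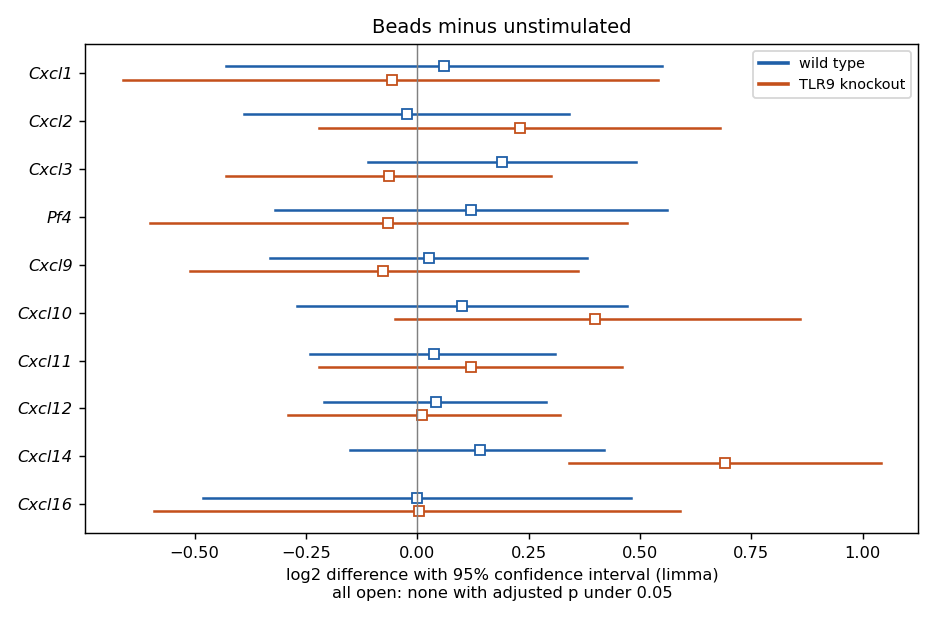
Points are log2 differences, beads minus unstimulated, for the 10 CXC chemokines in wild type (blue, 3 against 3 arrays) and TLR9 knockout (red, 2 against 2 arrays), and lines are 95% confidence intervals from limma. None passed at an adjusted p under 0.05, and Cxcl14 in the knockout line (0.69) is the only one whose interval lies above 0.

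Ordered by group means, Cxcl10, Cxcl14 and Cxcl16 were highest in knockout with beads, then knockout unstimulated, wild type with beads and wild type unstimulated. The differences between the treatments of a line did not pass, and the differences between the lines at the same treatment did. Knockout unstimulated was not tested against wild type with beads. For Pf4 unstimulated knockout (9.81) stood above knockout with beads (9.75), again without a difference beyond the spread. In both knockout groups the 4 high chemokines ordered the arrays alike. All 4 were higher in unstimulated array 1 than in 2 and in bead array 2 than in 1. Of 1943 genes with a mean over all arrays between 9 and 11, 55.7% and 83.0% were ordered in the same way. The 4 chemokines had lower means over all arrays, so these genes are not matched to them in level. The part of the arrays' overall spread in these orders was not tested.

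The genes most like the 4 chemokines over the 10 arrays were themselves higher in the knockout line. Pearson r was highest for Cxcl10 with Il7r (0.997), Rsad2 (0.996) and Ifit3 (0.996), and for Cxcl14 with Il7r (0.995), Dusp1 (0.994) and Ank (0.994). Cxcl16 was followed by Fkbp9 (0.998), Slc43a3 (0.996) and Ifit1 (0.996), and Pf4 by Dnase1l1 (0.998), Cd52 (0.996) and Cd14 (0.995). These values are descriptions over 10 arrays that fall into 2 lines, and between 267 and 341 genes exceeded 0.95 for each of the 4. Il7r, the receptor chain for interleukin 7, differed between the lines by 2.99 ± 0.13 (SE) without beads and 3.69 ± 0.13 with beads.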

How the data were processed

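Expression was measured on 10 arrays of cultured mouse macrophages. The deposited table holds RMA values on the log2 scale, as named in the submitters' processing notes. The RMA version is not stated, nor whether the authors normalised the 10 arrays together. Of 28853 probe sets, 21789 carried 1 gene symbol, 1621 several and 5443 none. Symbols were updated through Entrez IDs, and for each of 19938 genes the single-symbol probe set of highest mean was used. Groups were taken from the labels. A model of 4 group means was fitted with limma 3.58.1 in R 4.3.3 (lmFit, eBayes without trend, 6 residual and 3.23 prior degrees of freedom), and p-values were adjusted by Benjamini-Hochberg over all genes. The fit was tested on simulated data with independent noise of equal spread on all arrays. That test therefore does not cover an array that stands apart, as wild-type bead array 3 does. No gene was removed for low signal, and precision is limited by the number of arrays. The 10 chemokines, the gene lists and the motifs were chosen with earlier results of these data known. From each list up to 4 genes with the largest difference among those that passed were to be named, and neighbours were the 3 nearest measured genes on either side. Some further list genes were named after their values were seen. Alternatives changed the prior, the centring, the normalisation, the filter, the weights, the probe sets and the arrays included.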

Additional observations from a re-analysis of the deposited data

How the results depend on the processing

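The 4 chemokines that were higher in the knockout line passed in both comparisons under all 20 alternatives, which comprised a trended or robust prior, array centring by median or upper quartile, renewed quantile normalisation, a low-signal filter, the compared groups alone, array weights, averaged or all probe sets, and leaving out each of the 10 arrays. Over these the difference without beads ran from 3.88 to 4.41 for Cxcl10, 3.26 to 3.53 for Cxcl16, 1.93 to 2.30 for Cxcl14 and 1.94 to 2.27 for Pf4. Many of the alternatives could not move a log2 difference and bear on p only. These were the priors, the filter (which kept all 10 chemokines) and the compared groups alone. Each chemokine has 1 probe set, so the probe set alternatives left its differences unchanged too. The same holds for leaving out an array of a group not compared. With array weights the count of chemokines that passed for the wild-type bead response was 4 instead of 0: Cxcl1 turned to -0.27 and Cxcl16 to -0.29, Cxcl2 was at -0.42 and Pf4 at 0.35. These weights ran from 0.0701 to 12.1 between arrays and their estimation stopped before it converged. The cause was not tested. How many of all genes passed in that fit was not counted, so the 4 have no background. Among the 42 values that did not pass, 81 of 830 alternative values had the opposite sign, and the 830 include such unchanged values. Upper quartile centring moved the median of all genes to 0.10 for the unstimulated lines. No paired analysis was possible because no replicate number is common to the groups in the labels. With a single array left in a knockout group, that array was assumed to vary like the other groups.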

Other observations

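CC chemokines, the sister family, went both ways between the lines. Of 12 measured, 3 were higher and 4 lower in the unstimulated knockout line, against 3.79% and 4.46% of all genes. With beads 1 was higher and 5 lower, against 3.82% and 3.40%. Ccl5, a T cell and monocyte attractant that interferon also induces, was higher by 3.16 ± 0.23 (SE, log2) without beads and 2.93 ± 0.23 with beads. The monocyte attractants Ccl7 (-2.08 ± 0.15) and Ccl2 (-1.28 ± 0.17) and the eosinophil attractant Ccl24 (-1.20 ± 0.13) were lower without beads, all by limma with 2 and 3 arrays. None of the 12 passed for a bead response in either line, and neither did any other measured gene.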
